A study of Mus musculus with 2 samples.

Results

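The microRNA genes described here lie on mouse chromosome 12 between the long non-coding RNA gene Meg3 and the downstream cluster that begins with Mir379, and most of them are antisense to Rtl1. They were chosen by symbol: Mir493, Mir337, Mir540, Mir431, Mir433, Mir127, Mir434 and Mir136. Of these 8 symbols 7 had a row among the 1973 counted microRNA genes, and Mir136 had none. Small RNA of the midbrain of B6NCrl embryos at embryonic day 10.5 was sequenced from 1 group of 2 biological replicates, replicate 1 a pool of 69 and replicate 2 a pool of 51 embryos, males and females together. The embryos were healthy and carried no treatment or engineered allele that the labels name. No other tissue, stage or condition was profiled, so levels, their order and the spread between the pools are given, and no contrast between conditions.

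The Dlk1-Dio3 domain is imprinted. Its microRNAs are made from the maternal chromosome, from long non-coding transcripts on the plus strand that begin with Meg3, while the protein-coding genes Dlk1, Rtl1 and Dio3 are expressed from the paternal one. Rtl1 (also called Peg11) descends from a retrotransposon and is needed in the mouse placenta. MicroRNAs cut out of the transcript antisense to Rtl1 match its messenger RNA without mismatch, and in mice they are known to direct its cleavage. A primary transcript is trimmed to a hairpin of which 1 or both arms become mature microRNAs, and bases 2 to 8 of a mature arm, the seed, select most targets.

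The annotation divides the 8 genes by their place relative to Rtl1 (chr12:109589193-109600330, mm10, minus strand). Mir431 (ENSMUSG00000070080, chr12:109590447-109590537), Mir433 (ENSMUSG00000070072, chr12:109591715-109591838), Mir127 (ENSMUSG00000070076, chr12:109592846-109592915), Mir434 (ENSMUSG00000070133, chr12:109594506-109594599) and Mir136 (ENSMUSG00000104858, chr12:109595327-109595388) are on the plus strand inside an Rtl1 exon, each wholly within the coding sequence. Counted from the first coding base of Rtl1, Mir136 covers bases 16 to 77, Mir434 bases 805 to 898, Mir127 bases 2489 to 2558, Mir433 bases 3566 to 3689 and Mir431 bases 4867 to 4957. The other 3 genes do not overlap Rtl1. Mir493 (ENSMUSG00000077025, chr12:109580233-109580315), Mir337 (ENSMUSG00000065526, chr12:109585789-109585885) and Mir540 (ENSMUSG00000072900, chr12:109586080-109586146) lie 8.88, 3.31 and 3.05 kb before the 3′ end of Rtl1 on the plus strand, and are called upstream here in the direction in which the microRNAs are transcribed. The label antisense to Rtl1 hence holds for 5 of the 8 genes. All 8 lie within 15.2 kb, the 5 antisense genes within 4.94 kb, and 114 kb separate the last of them from Mir379.

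The mature sequences of the 5 antisense genes are shown because their match to Rtl1 sets these genes apart (RefSeq, GRCm38.p6, 5′ to 3′, seed in capitals).
mmu-miR-431-5p: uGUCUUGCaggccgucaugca
mmu-miR-431-3p: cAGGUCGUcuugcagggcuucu
mmu-miR-433-5p: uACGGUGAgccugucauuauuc
mmu-miR-433-3p: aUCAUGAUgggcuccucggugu
mmu-miR-127-5p: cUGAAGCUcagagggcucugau
mmu-miR-127-3p: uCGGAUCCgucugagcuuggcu
mmu-miR-434-5p: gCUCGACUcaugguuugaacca
mmu-miR-434-3p: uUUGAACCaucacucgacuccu
mmu-miR-136-5p: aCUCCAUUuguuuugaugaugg
mmu-miR-136-3p: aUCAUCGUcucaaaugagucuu
All 10 are complementary to the annotated Rtl1 messenger RNA over their whole length, which follows from their position on the opposite strand of its coding sequence. For the 6 mature sequences of the other 3 genes, the longest stretch complementary to Rtl1 was 8 to 11 bases.

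The 16 mature sequences of the 8 genes carry 16 different seeds, so that these neighbours do not form a seed family. Only 1 of the 16 seeds recurs in a RefSeq mature sequence of another gene: mmu-miR-540-3p has the seed of mmu-miR-6915-5p. None of the 16 was found whole in another transcript of the GENCODE M21 annotation. No stretch of 20 bases of the hairpins occurred in another annotated microRNA hairpin, other than in the antisense partners Mir3544 (of Mir337) and Mir3071 (of Mir136). The whole genome was not searched.

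Some of the hairpins are built of repeats. Stretches of 8 or more bases occurring more than once within the hairpin are in capitals in the 3 hairpins that hold any (RefSeq, GRCm38.p6, chr12, plus strand).
Mir434: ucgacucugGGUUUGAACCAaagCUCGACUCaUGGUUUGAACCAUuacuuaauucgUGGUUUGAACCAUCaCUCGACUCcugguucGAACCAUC
Mir431: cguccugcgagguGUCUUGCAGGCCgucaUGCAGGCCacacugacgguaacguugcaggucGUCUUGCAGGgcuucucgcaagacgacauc
Mir540: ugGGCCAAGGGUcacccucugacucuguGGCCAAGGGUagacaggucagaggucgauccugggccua
In Mir434, 62 of 94 bases lie in such stretches, in Mir431 30 of 91 and in Mir540 20 of 67. Of all 1005 RefSeq hairpins 129 (12.8%) hold a repeat of this length. The hairpins of the 8 genes have 62 to 124 bases and a GC content of 40.3 to 61.2%, with a median of 54.7% against 51.7% over all RefSeq hairpins.

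The libraries held 3297835 and 3682410 reads assigned to microRNA genes. Shares and CPM (reads per 1000000 gene-assigned reads) are relative to these, and intervals cover counting error only, since reads counted without molecular identifiers need not stand for separate molecules. Mir92b, known from neural progenitors, had 23299 ± 2904 CPM (SD, n = 2). The list of neural progenitor genes, 7 of 8 counted, held 2.16% of gene-assigned reads in replicate 1 and 2.56% in replicate 2. Most of these reads were of Mir92b, and Mir135a-2 had 184 ± 8.86 CPM. The counted copies of the genes of the neural microRNAs miR-9 and miR-124 had at most 102 CPM, and the multiply mapped reads, 30.9% of library 1 and 29.5% of library 2, belong to no gene. Markers of other tissues were present. In replicates 1 and 2 the endothelial Mir126a held 2.64% and 3.08% of gene-assigned reads. The 6 mesenchyme genes held 1.62% and 1.32% and the 7 epithelium genes 0.340% and 0.409%. The erythroid, leukocyte, muscle and liver lists, as far as counted, held at most 0.0588%, with 3 of 6 counted muscle genes at 0. The leukocyte sum is of 2 of its 3 named genes, since Mir142 had no row of that symbol. A row named Mir142b, not in that sum, had 682 CPM in replicate 1 and 865 CPM in replicate 2. In bulk tissue, fewer cells of a type and less RNA per cell cannot be told apart. The part of other cell types in the levels below was not tested.

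The 7 counted genes together held 1.68% (95% Wilson interval 1.67 to 1.69%) of the gene-assigned reads in replicate 1 and 1.72% (1.71 to 1.74%) in replicate 2, a mean of 1.70% ± 0.0300 (SD, n = 2). They were 55409 and 63432 reads. All 7 had a mean of 10 CPM or more and at least 10 reads in both libraries. Of all 1973 counted genes, 338 had such a mean and 399 had that many reads. The mean levels of the 7 ran from 152 to 6583 CPM with a median of 1166 CPM. The median of all 338 genes of mean CPM 10 or more was 269 CPM. Since a read of this size covers a mature microRNA from end to end, CPM were not divided by length, and a gene's count joins the reads of both arms.

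Among the antisense genes, Mir431 and Mir127 stood far above Mir433 and Mir434. Mir431, whose microRNA is known in mouse sensory neurons for lowering Kremen1, an inhibitor of Wnt signalling, was the highest of the 7. It had 20961 reads (6356 CPM) in replicate 1 and 25074 reads (6809 CPM) in replicate 2, a mean of 6583 ± 320 CPM (SD, n = 2), and ranked 35 and 36 among all counted genes. Mir127, loss of which is known to raise Rtl1 in the mouse placenta, had 18298 reads (5548 CPM) and 17786 reads (4830 CPM), a mean of 5189 ± 508 CPM. Its ranks were 43 and 46. Both exceeded each of the other 5 genes in both libraries, and they held 70.9% (95% Wilson interval 70.5 to 71.2%) and 67.6% (67.2 to 67.9%) of the reads of the 7 genes.

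Mir434 and Mir433 were lower and close to each other. Mir434, the gene whose hairpin is mostly repeats, had 3685 reads (1117 CPM) in replicate 1 and 4333 reads (1177 CPM) in replicate 2, a mean of 1147 ± 41.9 CPM (SD, n = 2). Mir433 had 3271 reads (992 CPM) and 3823 reads (1038 CPM), a mean of 1015 ± 32.8 CPM, and ranked 107 among all genes in both libraries. Mir433 lies between Mir431 and Mir127, so the level did not change steadily along the antisense stretch: going along the plus strand, high and low genes alternated. The read ratio of Mir431 to its neighbour Mir433, 1.18 kb away, was 6.41 (95% counting interval 6.18 to 6.65) in replicate 1 and 6.56 (6.34 to 6.79) in replicate 2. That of Mir127 to Mir434 was 4.97 (4.79 to 5.15) and 4.10 (3.97 to 4.24), so that here the libraries differed by more than counting error.

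Of the upstream genes, Mir337 was the highest and Mir493 the lowest. Mir337 had 5357 reads (1624 CPM) in replicate 1 and 7000 reads (1901 CPM) in replicate 2, a mean of 1763 ± 196 CPM (SD, n = 2). Mir540, which begins 0.194 kb after the end of Mir337, had 3394 reads (1029 CPM) and 4794 reads (1302 CPM), a mean of 1166 ± 193 CPM. Both were higher in replicate 2. Mir493, studied in human colon cancer cells as a microRNA that targets IGF1R, had 443 reads (134 CPM) and 622 reads (169 CPM), a mean of 152 ± 24.5 CPM, and its ranks were 203 and 191.

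**Figure D1:**
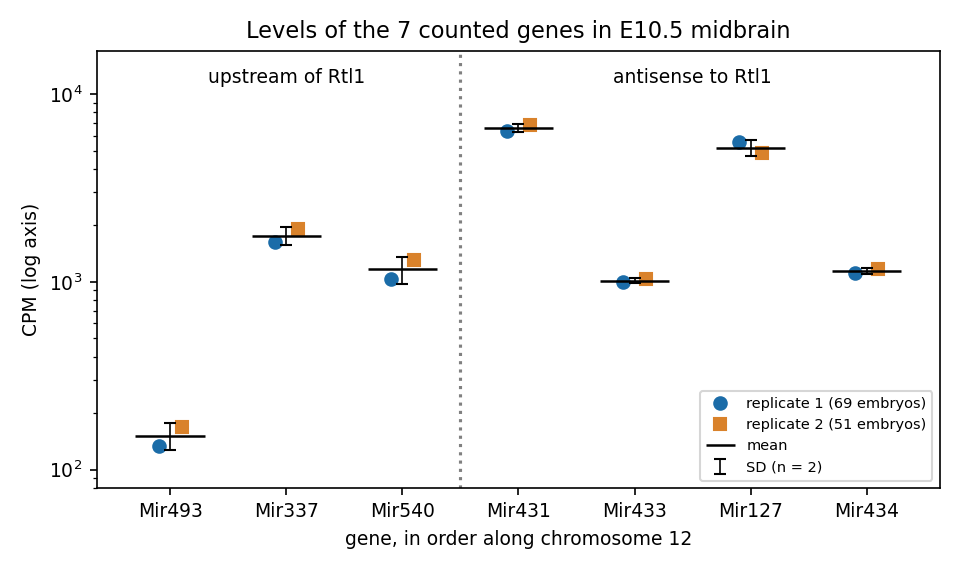
CPM of the 7 counted genes (log axis) in the order in which they lie on chromosome 12, with 1 point for each replicate, a bar for the mean and the SD over 2 replicates. Mir431 and Mir127 lie near 6583 and 5189 CPM, Mir493 near 152 CPM, and the other 4 genes between 1015 and 1763 CPM.

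Ordered by mean level, the 7 genes were Mir431, Mir127, Mir337, Mir540, Mir434, Mir433 and Mir493. Mir540 and Mir434 did not differ beyond their spread, with means 18.5 CPM apart against summed SDs of 235 CPM, and their order was the opposite in the libraries. Every other pair of neighbours in this order differed by more than its summed SDs, and in the same direction in both libraries. The smallest of these gaps was between Mir434 and Mir433 (132 CPM against summed SDs of 74.7 CPM) and the widest ratio between Mir433 and Mir493 (6.69). With 1 group of 2 replicates this is a description without a test. Reads of different genes can also be captured with different efficiency, which was not tested.

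The 4 counted antisense genes held 83.4% (95% Wilson interval 83.1 to 83.7%) of the reads of the 7 genes in replicate 1 and 80.4% (80.1 to 80.7%) in replicate 2, a mean of 81.9% ± 2.11 (SD, n = 2). As a share of all gene-assigned reads they made up 1.40% and 1.39%, and the 3 upstream genes 0.279% and 0.337%. The summed share of the antisense genes among all gene-assigned reads hence differed little between the pools. Within this sum Mir127 was lower in replicate 2 and the other 3 genes higher. The summed share of the upstream genes was larger in replicate 2.

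Between the pools the genes differed by less than 1.5-fold. The log2 ratio of replicate 2 over replicate 1, with library sizes scaled by TMM, was 0.36 for Mir540, 0.35 for Mir493, 0.25 for Mir337, 0.12 for Mir431, 0.10 for Mir434, 0.09 for Mir433 and -0.18 for Mir127. The 3 upstream genes thus had the 3 highest ratios, and Mir127 was the only 1 of the 7 that was lower in replicate 2. Of the 338 genes of mean CPM 10 or more, 164 (48.5%) had a log2 ratio above 0 and 174 below. None of the 7 lay beyond 1.5-fold, against 60 of all 338 genes of mean CPM 10 or more (17.8%). The 338 genes were not matched to the 7 in level. Their lowest mean was 10.1 CPM, against 152 CPM for the 7, and counting error is larger at low counts. The median of the 7 was 0.12 and that of the 338 genes -0.01. The median size of the log2 ratio without its sign was 0.18 for the 7 and 0.26 for the 338 genes. The other genes of the Dlk1-Dio3 domain had a median size of 0.14 and 1 of 42 beyond 1.5-fold.

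These differences were small but mostly exceeded counting error, which is narrow at read counts of this size. How many of the 338 genes did so was not determined, so it cannot be said whether this is particular to the 7. Mir540 was 1.29-fold higher in replicate 2 (95% counting interval 1.23 to 1.34), Mir493 1.28-fold (1.13 to 1.45), Mir337 1.19-fold (1.15 to 1.23) and Mir431 1.09-fold (1.07 to 1.11). The ratio of Mir127 was 0.885 (0.867 to 0.904). Mir434 at 1.07 (1.02 to 1.12) and Mir433 at 1.06 (1.02 to 1.12) were closest to 1, and the interval of Mir433 took in 1 with total counts in place of TMM (0.999 to 1.10) and with TMM over genes of at least 10 reads in both libraries (0.999 to 1.10). The intervals compare 2 libraries and hold no spread between further pools. The share of Mir126a and the summed shares of the neural progenitor and the epithelium genes were also higher in replicate 2. The summed share of the mesenchyme genes was lower. Single genes of the neural progenitor and epithelium lists went the other way. In replicates 1 and 2 Mir203 had 2875 and 2454 reads and Mir200a 199 and 156. Of the neural progenitor genes, Mir9-3 had 452 and 246 reads, Mir124a-2 56 and 36, and Mir124a-1 7 and 2. Mir135a-2 had 190 and 178 CPM. The higher sum of that list was hence that of Mir92b, with 70064 and 93358 reads. Mir124a-3 (16 and 34 reads) and Mir9-2 (3 and 4) were also higher but added few reads. Larger differences included that of Mir302a, known from embryonic stem cells, with 13266 CPM in replicate 2 and 5669 CPM in replicate 1. Mir211, known from pigment cells, had 137 CPM in replicate 2 and 13.0 CPM in replicate 1. The highest log2 ratio of the 338 genes was 4.64, of Mir184, with 3 reads in replicate 1 and 95 in replicate 2. Other genes were lower in replicate 2, such as Mir138-1 (log2 ratio -1.13) and Mir181b-2 (-1.07). Their part in the ratios of the 7 genes was not tested.

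**Figure D2:**
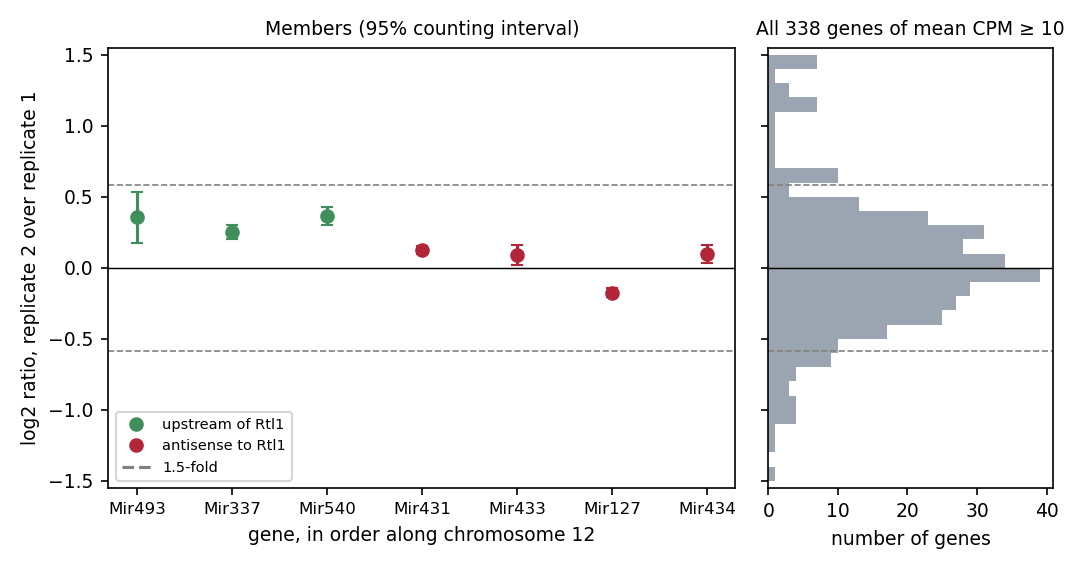
Left, log2 ratio of replicate 2 over replicate 1 for the 7 genes in the order of their positions, with 95% counting intervals, for 3 genes upstream of and 4 antisense to Rtl1. Right, number of genes at each log2 ratio among all 338 genes of mean CPM 10 or more, with values beyond the axis gathered in its outermost bins. The 7 genes lie between -0.18 and 0.36, within the dashed lines at 1.5-fold.

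The balance of Mir431 and Mir127, the highest 2, differed between the pools. There were 1.15 reads of Mir431 for each read of Mir127 in replicate 1 (95% counting interval 1.12 to 1.17) and 1.41 in replicate 2 (1.38 to 1.44). Of the reads of the 7 genes, Mir431 held 37.8% and 39.5%, and Mir127 33.0% (95% Wilson interval 32.6 to 33.4%) and 28.0% (27.7 to 28.4%). Log2 ratios of adjacent counted members differed by 0.03 (Mir431 and Mir433) to 0.27 (Mir127 and Mir434).

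**Figure D3:**
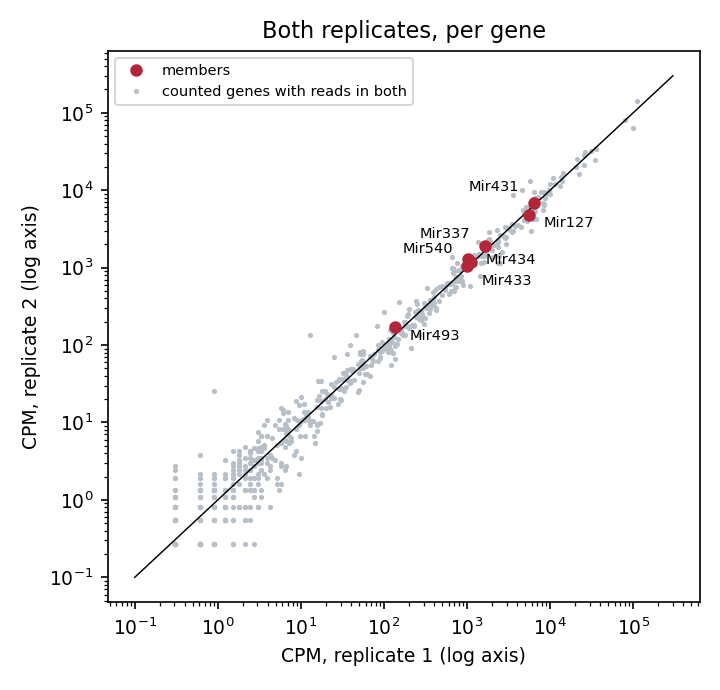
CPM in replicate 2 against CPM in replicate 1 (both axes log), for all counted genes with reads in both libraries, with the 7 genes marked and a line where the replicates are equal. The 7 genes lie close to the line, from Mir493 at 134 and 169 CPM to Mir431 at 6356 and 6809 CPM.

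In the whole domain, the 7 genes lay among the higher and the middle ranks. Between Dlk1 and Dio3 59 microRNA genes were counted, with 8.28% and 8.48% of the gene-assigned reads. The 7 genes held 20.3% of these in each library (95% Wilson intervals 20.2 to 20.5% in both), although their own ratios differed. Without the genes annotated on the minus strand the share was 25.1% and 25.4%. By mean CPM over the 59 genes, Mir431 ranked 5 and Mir127 6, followed by Mir337 (13), Mir540 (20), Mir434 (21), Mir433 (22) and Mir493 (39). Above them stood Gm24321 at 11105 ± 1461 CPM, which overlaps Mir409 on the other strand, then Mir487b (9933 ± 156 CPM), Mir369 (6858 ± 119 CPM) and Mir411 (6668 ± 564 CPM; SD, n = 2). Gm24321, Gm25252 (rank 10), Mir299b (15) and Gm25750 (16) are annotated on the minus strand. All or nearly all their reads lay in the second strand column, described below, and not in that taken as the strand of the gene. The gaps of Mir431 to Mir411 and to Mir369 were each smaller than the summed SDs of the pair. The lowest detected genes of the domain, with at least 10 reads in both libraries, were Mir1197 at 12.9 ± 1.02 CPM, Mir1188 at 18.0 ± 1.03 CPM and Mir668 at 51.0 ± 11.9 CPM. Of the other 52 genes 42 had a mean CPM of 10 or more, and 21 of these were above and 21 below a log2 ratio of 0, with a median of 0.00 and a range of -0.45 to 0.67.

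**Figure D4:**
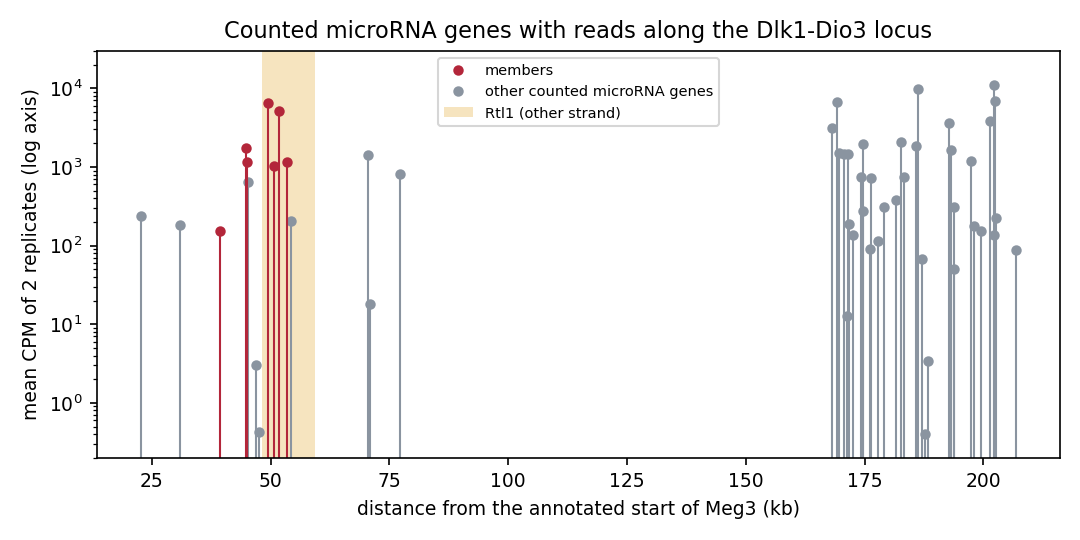
Mean CPM over 2 replicates (log axis) of the counted microRNA genes with reads, against the distance of each from the annotated start of Meg3 in kb. Members are red, other genes grey, and the shaded band is Rtl1, on the other strand. The highest red points are Mir431 at 6583 and Mir127 at 5189 CPM, and Mir1247, next to Dio3, is beyond the axis.

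Genes of the same stretch that are not among the 8 had lower counts than 6 of the 7 members. Mir665, which follows Mir540, had 646 ± 11.0 CPM (SD, n = 2), Mir770 in Meg3 237 ± 6.50 CPM and Mir3070a 9 and 12 reads. Of the list of 7 such genes 5 were counted and 2 detected, Mir770 at a log2 ratio of -0.03 and Mir665 at -0.01. Mir673, between Meg3 and Mir493 and not in that list, had 185 ± 17.2 CPM and a log2 ratio of 0.21. Mir432, annotated antisense to Rtl1 between Mir434 and Mir136, had 0 reads in both libraries, which allows up to 0.910 and 0.815 CPM (3 reads). The 4 genes of the stretch within Rian and beyond it that were listed (Mir341, Mir370, Mir1188 and Mir882) held 0.221% and 0.227% of the gene-assigned reads together.

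Genes nearest in level are given by the distance of log2 CPM over the 2 libraries. For Mir431 these were Mir411 (distance 0.06) and Mir369 (0.10) of the same domain and Mir20b (0.18) on chromosome X. For Mir127 they were Gm25301 (0.22), Mir135b (0.25) and Mir23b (0.26), all on other chromosomes. For Mir493 they were Mir450b (0.13), Mir331 (0.20) and Mir412 (0.25), of which Mir412 is in the same domain. With 2 libraries such likeness is of level only.

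Nearly all reads of the 7 genes lay in 1 of the 2 strand columns. The first strand column, taken as the strand of the gene, held 99.946% of them in replicate 1 and 99.953% in replicate 2. Over all genes it held 97.4% and 97.3%, where Gm24321 alone had 33216 and 44699 reads in the second column. The trait is not particular to the 7 genes. The other plus-strand genes of the domain had at most 1 read each in the second column of a library. For the 7 genes the second strand column held 30 reads in each library. All 30 in replicate 1 and 29 in replicate 2 belonged to Mir337, 0.560% (95% Wilson interval 0.393 to 0.798%) and 0.414% (0.289 to 0.594%) of its reads, and 1 in replicate 2 to Mir540. On the opposite strand of Mir337 lies Mir3544 (chr12:109585813-109585873), which has no row in the counts. Its annotated mature sequences are shown with those of Mir337, the only counted member with such a partner.
mmu-miR-337-5p: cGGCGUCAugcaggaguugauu
mmu-miR-337-3p: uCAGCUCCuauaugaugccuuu
mmu-miR-3544-5p: aGAAAGGCaucauauaggagcug
mmu-miR-3544-3p: aCUCCUGCaugacgccguuccc
From counts per gene it cannot be told which sequence these reads had.

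Mir136 could not be measured by its own row. Its 62 bases lie wholly within Mir3071 (ENSMUSG00000070129, chr12:109595318-109595397), annotated on the minus strand in GENCODE M21. The Mir3071 row had 754 reads (229 CPM) in replicate 1 and 677 reads (184 CPM) in replicate 2, a mean of 206 ± 31.7 CPM (SD, n = 2), with 753 and 677 of them in the first strand column. By contrast Gm24321, also on the minus strand in M21, had 0 reads in that column. The counts carry version 1 of the Mir3071 identifier and M21 version 2. The strand that version 1 had in the annotation used for counting is not given in the sources used here, so reads of Mir136 and of Mir3071 cannot be told apart.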

How the data were processed

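The deposited files hold raw counts of reads per microRNA gene, 1 file per library, which the authors made from reads aligned to mm10 and counted on GENCODE M4, per the file descriptions deposited with them. Neither the aligner nor the trimming tool is named in the labels or descriptions used here. Multiply mapped reads have a row of their own and are in no gene. The first count column, the sum of 2 unnamed strand columns, was used. Identifiers were matched without version to GENCODE M21 (1894 of 1973 matched), and 4 of the 7 counted members have the same version in both. Sequences are from RefSeq.

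CPM and Wilson intervals used scipy 1.17.1. Log2 ratios used 0.5 added reads and TMM (edgeR 4.0.16) over the 338 genes of mean CPM 10 or more, with exact counting intervals at 95%. In simulated Poisson counts such intervals held the true ratio for 92.3% of 336 genes. Most genes had been shifted up or down in that simulation, unlike in the data, so the figure need not hold for the intervals given here. Total counts and TMM over genes of at least 10 reads in both libraries, or over all genes with reads, were alternatives. DESeq2 1.42.0 size factors were another. All members are named, with the 3 genes nearest in level to Mir431, Mir127 and Mir493 and the 3 highest and lowest detected others of the domain. Mir3071, Mir3544, Mir432, Mir411, Mir665, Mir673, Mir770, Mir3070a, Mir302a and Mir211 were named after their values were seen. So were Mir142b, Mir184, Mir138-1, Mir181b-2, Gm25252, Gm25750 and Mir299b. Members and lists were chosen with earlier results of these data known. Whether the pools were prepared separately beyond being biological replicates is not stated.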

Additional observations from a re-analysis of the deposited data

Results flagged for a closer look

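Reads appeared in 2 places that the comparisons did not use by themselves. The second strand column, which enters a gene's count only in sum with the first, held 30 reads at Mir337 in replicate 1 and 29 in replicate 2, more than the 3 reads that a count of 0 allows. The Mir3071 row, which overlaps Mir136, held 754 reads in replicate 1 and 677 in replicate 2. In neither case was the source of the reads tested.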

How the results depend on the processing

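The number of genes above a log2 ratio of 0 (6), the number beyond 1.5-fold (0) and the direction of the median held under DESeq2 size factors, total counts, the first strand column alone and 1 added read, and the latter 2 results also under both other filters. The median was 0.10 to 0.14 over all of these. With no filter on low counts 45.0% of all genes with reads lay beyond 1.5-fold. With all reads of the library as denominator the median level was 472 CPM and the summed share 0.691%. The summed share was 1.95% without the most abundant gene and 1.75% in the first strand column alone, where the members held 25.2% of the domain's reads. Alternatives chosen after the data were seen gave 25.3% of the domain with plus-strand genes only and 20.6% with the Mir3071 reads counted as members. Without 1 replicate the median level was 1117 to 1302 CPM, the summed share 1.68 to 1.72%, the antisense share 80.4 to 83.4%, the share in the first strand column 99.946 to 99.953% and the share of the domain 20.302 to 20.312%. Of the single genes' levels under alternatives that keep both replicates, 12 moved by more than their SD, all under another denominator, and 16 did not. With 2 replicates, leaving out 1 cannot move a mean by more than its SD and shows nothing on stability. No paired analysis was possible because there is 1 group. Depth does not limit the 7 members, the lowest of which had 443 reads, but does limit Mir432.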
